A study of Homo sapiens with 12 samples.

Results

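The genes described here encode 9 signals by which an epithelial cell can address lymphocytes and myeloid cells: TNFSF13B (the B cell survival factor BAFF), CD40, ICAM1, CD274 (PD-L1), IL15, IL15RA, IL7, IL18 and CSF1. They were taken by symbol from the 60609 annotated genes of every library, and the TPM (a transcript abundance corrected for length and depth) of a gene is the sum over its transcripts. Of the 9 genes, 8 reached 1 TPM in 2 or more of the 12 libraries and were tested among 17185 genes in all, and IL7 did not reach that level in any library. TNFSF13B passed this filter through 4 poly I:C libraries alone.

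Polyadenylated RNA was sequenced from NS-SV-AC, an established line of human salivary gland acinar cells, in a study of mitochondrial double-stranded RNA in Sjogren's syndrome. All 6 groups are this line and had 2 libraries each: DMSO with the transfection control that the labels call depc, DMSO with poly I:C (a man-made mimic of viral double-stranded RNA), 2-CM (2-C'-Methyladenosine) with depc, 2-CM with poly I:C, RES (Resveratrol) with depc, and RES with poly I:C. Cells were grown for 48 h, compound was given 24 h before transfection and once more with it at a labelled dose of 20 (the unit was read as micromolar), and poly I:C was present for 14 h. Nothing in the labels says whether the 2 libraries of a group came from separate cultures, so p-values measure the spread between these libraries, which may be technical.

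BAFF, made as a membrane protein and released by furin-like proteases, keeps B cells alive through its receptors and is known for being raised in the salivary glands of patients with Sjogren's syndrome. CD40 receives CD40 ligand from T cells and signals to NF-kB, ICAM1 holds leukocytes by their integrins, and PD-L1 restrains T cells through PD-1. IL-15 is shown to T and NK cells on its own receptor chain, IL-15RA, IL-7 supports lymphocytes, IL-18 is cut to its active form by caspase-1, and CSF1 maintains macrophages. Double-stranded RNA in a cell is sensed by receptors that turn on interferon, and interferon acts on many of these genes through factors such as IRF9 and IRF1, while NF-kB acts on others.

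The label of the cells was set against marker genes. KRT8 ranged over the libraries from 630 to 1958 TPM and KRT18 from 466 to 1571 TPM, EPCAM did not exceed 1.23 TPM and CDH1 did not exceed 0.596 TPM, and KRT5 and KRT14 were listed at 0. Of 7 markers of salivary acinar cells, 5 (AQP5, MUC7, PRB1, STATH and HTN1) were listed at 0 in every library, so the acinar identity rests on the label. Of 12 leukocyte markers, 4 (PTPRC, MS4A1, CD3D and CD3E) were listed at 0 in every library, and the summed level of the list ran from 12.8 to 24.6 TPM with depc and from 12.01 to 26.1 TPM with poly I:C, most of it CD14 (7.05 to 15.8 TPM). The summed level of 8 epithelial markers ran from 1683 to 3532 TPM with depc and from 1099 to 1733 TPM with poly I:C, and that of 5 fibroblast markers, COL1A1 among them at 15.9 to 100.3 TPM, from 45.1 to 152 TPM. Whether these levels take part in the results below was not tested. Estimated reads per library ran from 31.2 to 49.4 M. Replicates of a group stood apart along GC content: Spearman's rho across genes between GC and replicate 1 minus replicate 2 ran from -0.80 in RES depc to 0.79 in RES poly I:C. In bulk RNA, a smaller share of expressing cells and less RNA per cell cannot be told apart.

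Promoter sequence is shown for the genes on which the results turn, since poly I:C and interferon act on transcription. RefSeq promoters (GRCh38.p14) were matched for 4 symbols, TNFSF13B, ICAM1, CD274 and IL15RA, and CD40, IL15, IL18 and CSF1 had no entry in the promoter set used here. Bases before the start site were searched on both strands for the core of the interferon-stimulated response element (ISRE), GAAA followed by any 2 bases and a second GAAA, for the palindrome of the interferon-gamma-activated site (GAS), TTCNNNGAA, and for the NF-kB consensus, GGGRNNYYCC. N is any base, R is A or G, and Y is C or T. Capitals mark the matches.
TNFSF13B, chr13:108269637-108269666, plus strand: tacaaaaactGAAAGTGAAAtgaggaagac
CD274, chr9:5450292-5450502, plus strand: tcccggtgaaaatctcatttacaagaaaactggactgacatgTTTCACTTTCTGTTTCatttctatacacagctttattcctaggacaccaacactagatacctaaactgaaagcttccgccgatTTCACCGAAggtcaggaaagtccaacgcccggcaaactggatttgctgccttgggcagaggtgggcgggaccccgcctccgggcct
ICAM1, chr19:10270870-10271092, plus strand: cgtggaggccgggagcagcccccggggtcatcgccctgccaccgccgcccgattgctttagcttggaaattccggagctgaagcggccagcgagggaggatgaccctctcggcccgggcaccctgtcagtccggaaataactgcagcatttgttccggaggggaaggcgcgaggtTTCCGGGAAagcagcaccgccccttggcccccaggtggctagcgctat
The TNFSF13B window lies inside the annotated gene (chromosome 13, 108251240 to 108308484), and its ISRE match spans bases 71 to 62 before the start at 108269718, which is the 5′ end of the most abundant TNFSF13B transcript here. The CD274 window lies directly upstream of the gene (chromosome 9, 5450503 to 5470566). It holds an ISRE match from 208 to 199 bases before the start, an overlapping one from 202 to 193 and a GAS match from 125 to 117. The ICAM1 window lies directly upstream of that gene (chromosome 19, 10271093 to 10286615) and holds 1 GAS match, from 75 to 67 bases before the start. The IL15RA window held no match, and none of the 4 held the NF-kB consensus in these exact letters. The ICAM1 window holds tggaaattcc, which departs from that pattern only in its first base. Sites that depart from the letters are missed, so no match does not mean no site. Among 35116 RefSeq promoters, 3.02% held the ISRE core in 250 bases before the start, 6.57% the GAS palindrome and 9.96% the NF-kB consensus. The windows here are shorter: 30 bases around its match for TNFSF13B, 211 for CD274, 223 for ICAM1 and 182 for IL15RA. Those of CD274, ICAM1 and IL15RA leave out the bases nearest the start, so the shares are not matched to them. A match describes the letters and shows no binding.

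BAFF mRNA was scarce with depc and higher with poly I:C under each compound. TNFSF13B stood at 0.0346 and 0.0787 TPM in the DMSO depc libraries, at 0.0657 and 0.0736 TPM in 2-CM depc, and at 0.186 TPM and listed at 0 in RES depc. With poly I:C, the DMSO libraries held 1.12 and 0.671 TPM, the 2-CM libraries 2.82 and 2.72 TPM, and the RES libraries 0.289 and 1.37 TPM. Every poly I:C library lay above every depc library, the 2-CM poly I:C libraries were the highest, and those of DMSO and RES overlapped. The depth behind these levels was 0 to 13 estimated reads with depc and 17 to 163 with poly I:C. Fold changes here are on the log2(TPM + 1) scale and come out too small for so low a gene. The poly I:C effect averaged over the compounds was 1.11 (SE 0.16, limma, Benjamini-Hochberg adjusted p 0.00272). The effect under 2-CM was 1.82 (SE 0.27, adjusted p 0.0147), and those under DMSO, 0.83 (adjusted p 0.122), and under RES, 0.68 (adjusted p 0.304), did not pass. Since TNFSF13B entered the test through the group where it was high, its call is read with no filter on low genes too, where the adjusted p was 0.0076 averaged and 0.0351 under 2-CM. A correction for GC content, described below, ended both calls, at 0.32 (adjusted p 0.298) averaged and -0.14 (adjusted p 0.805) under 2-CM.

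CD274, whose product restrains T cells, was also higher with poly I:C. It stood at 0.630 and 0.415 TPM in DMSO depc, at 2.79 and 1.32 TPM in DMSO poly I:C, at 0.471 and 0.572 TPM in 2-CM depc, and at 5.24 TPM in both of the 2-CM libraries given poly I:C. In RES depc it stood at 1.84 and 1.23 TPM and in RES poly I:C at 2.17 and 5.34 TPM. Within each compound poly I:C lay above depc without overlap, although RES depc replicate 1 was above DMSO poly I:C replicate 2. The averaged effect was 1.28 (SE 0.20, adjusted p 0.00403), and that under 2-CM was 2.04 (SE 0.35, adjusted p 0.0221), a call that the GC correction ended (0.40, adjusted p 0.256). The effects of 0.96 under DMSO (adjusted p 0.167) and 0.83 under RES (adjusted p 0.337) did not pass.

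IL15RA, the chain that presents IL-15, was higher with poly I:C under each compound and far more abundant per length than its ligand. It stood at 17.5 and 13.5 TPM in DMSO depc against 29.2 and 35.5 TPM in DMSO poly I:C. Under 2-CM the depc libraries held 16.3 and 16.0 TPM against 38.2 and 45.2 TPM after poly I:C, and under RES 21.9 and 20.0 TPM against 37.5 and 33.9 TPM. The poly I:C groups were thus above all depc groups, by a ratio of means of 2.09 under DMSO, 2.58 under 2-CM and 1.70 under RES. The averaged effect was 1.02 (SE 0.12, adjusted p 0.00123). IL15RA was called under DMSO at 1.02 (SE 0.20, adjusted p 0.0359) and under 2-CM at 1.31 (SE 0.20, adjusted p 0.0161), and had 0.74 under RES (adjusted p 0.166). Under median-of-ratios scaling neither of these calls held, at 1.21 under DMSO (adjusted p 0.116) and 0.49 under 2-CM (adjusted p 0.227). The call under DMSO was also lost with the replicate number as a block.

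IL15 itself was low and its replicates lay far apart. With depc, DMSO libraries held 2.14 and 1.36 TPM, 2-CM libraries 1.33 and 0.503 TPM, and RES libraries 4.05 and 0.511 TPM. After poly I:C, DMSO libraries held 4.69 and 1.22 TPM, 2-CM libraries 6.995 and 5.91 TPM, and RES libraries 1.95 and 5.08 TPM. Groups overlapped under DMSO and RES and were apart under 2-CM, where the effect was 1.99 (SE 0.64, adjusted p 0.0356). That call was lost with no filter on low genes (adjusted p 0.0922) and with the GC correction (0.24, adjusted p 0.394). With no filter, 649 of 40364 genes were called under 2-CM in all. Averaged over the compounds the IL15 effect was 1.00 (SE 0.37, adjusted p 0.0661), which did not pass.

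IL18, the caspase-1 substrate, also differed most clearly between depc and poly I:C under 2-CM. Its depc levels were 5.30 and 3.09 TPM for DMSO, 3.09 and 2.35 TPM for 2-CM, and 15.4 and 6.47 TPM for RES. Its poly I:C levels were 9.17 and 5.01 TPM for DMSO, 14.4 and 15.8 TPM for 2-CM, and 14.0 and 20.3 TPM for RES. The groups were apart under 2-CM, where the effect was 2.12 (SE 0.43, adjusted p 0.0258), and overlapped under DMSO and RES. With no filter on low genes the adjusted p under 2-CM was 0.0535, and with the GC correction the effect was 0.50 (adjusted p 0.0446). Its averaged effect was 1.14 (SE 0.25, adjusted p 0.0116).

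ICAM1 moved the other way. It stood at 33.9 and 35.8 TPM in DMSO depc against 20.3 and 23.6 TPM in DMSO poly I:C, at 59.3 and 53.6 TPM in 2-CM depc against 41.1 and 42.05 TPM with poly I:C, and at 96.7 and 112 TPM in RES depc against 80.0 and 69.9 TPM in RES poly I:C. Both poly I:C libraries lay below both depc libraries under every compound. The averaged effect was -0.52 (SE 0.098, adjusted p 0.0073), and the effects of -0.65 under DMSO (adjusted p 0.0738), -0.43 under 2-CM (adjusted p 0.0598) and -0.47 under RES (adjusted p 0.264) did not pass singly. An antisense gene, AC011511.5, shares 815 exonic bases with ICAM1 and did not exceed 0.260 TPM in any library.

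CD40 and CSF1 were not called for poly I:C, although CSF1 was called after the GC correction given below. CD40 stood at 5.21 and 5.80 TPM in DMSO depc, 4.53 and 4.86 TPM in DMSO poly I:C, 6.88 and 6.06 TPM in 2-CM depc, 6.33 and 8.07 TPM in its poly I:C counterpart, 10.46 and 9.41 TPM in RES depc, and 10.1 and 8.57 TPM in RES poly I:C. Its averaged effect was -0.05 (95% interval -0.33 to 0.23, adjusted p 0.753). CSF1 stood at 17.8 and 17.0 TPM in DMSO depc, 14.4 and 18.5 TPM in DMSO poly I:C, 16.9 and 19.2 TPM in 2-CM depc, 23.6 and 25.0 TPM in its poly I:C counterpart, 14.0 and 15.6 TPM in RES depc, and 17.2 and 13.7 TPM in RES poly I:C. The 2-CM poly I:C libraries were the highest, and the averaged effect was 0.13 (95% interval -0.14 to 0.40, adjusted p 0.398).

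IL7 stayed under 1 TPM throughout. It stood at 0.521 and 0.0986 TPM in DMSO depc, 0.203 and 0.0282 TPM in DMSO poly I:C, 0.214 and 0.0823 TPM in 2-CM depc, 0.473 and 0.440 TPM in its poly I:C counterpart, 0.714 and 0.140 TPM in RES depc, and 0.156 and 0.392 TPM in RES poly I:C, on at most 24 estimated reads. It shares exonic bases with ZC2HC1A on the opposite strand (1.59 to 18.0 TPM), and no strand option stood in the file headers, so its level is uncertain. With no filter on low genes, IL7 had an averaged poly I:C effect of -0.0040 (adjusted p 0.990).

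**Figure D1:**
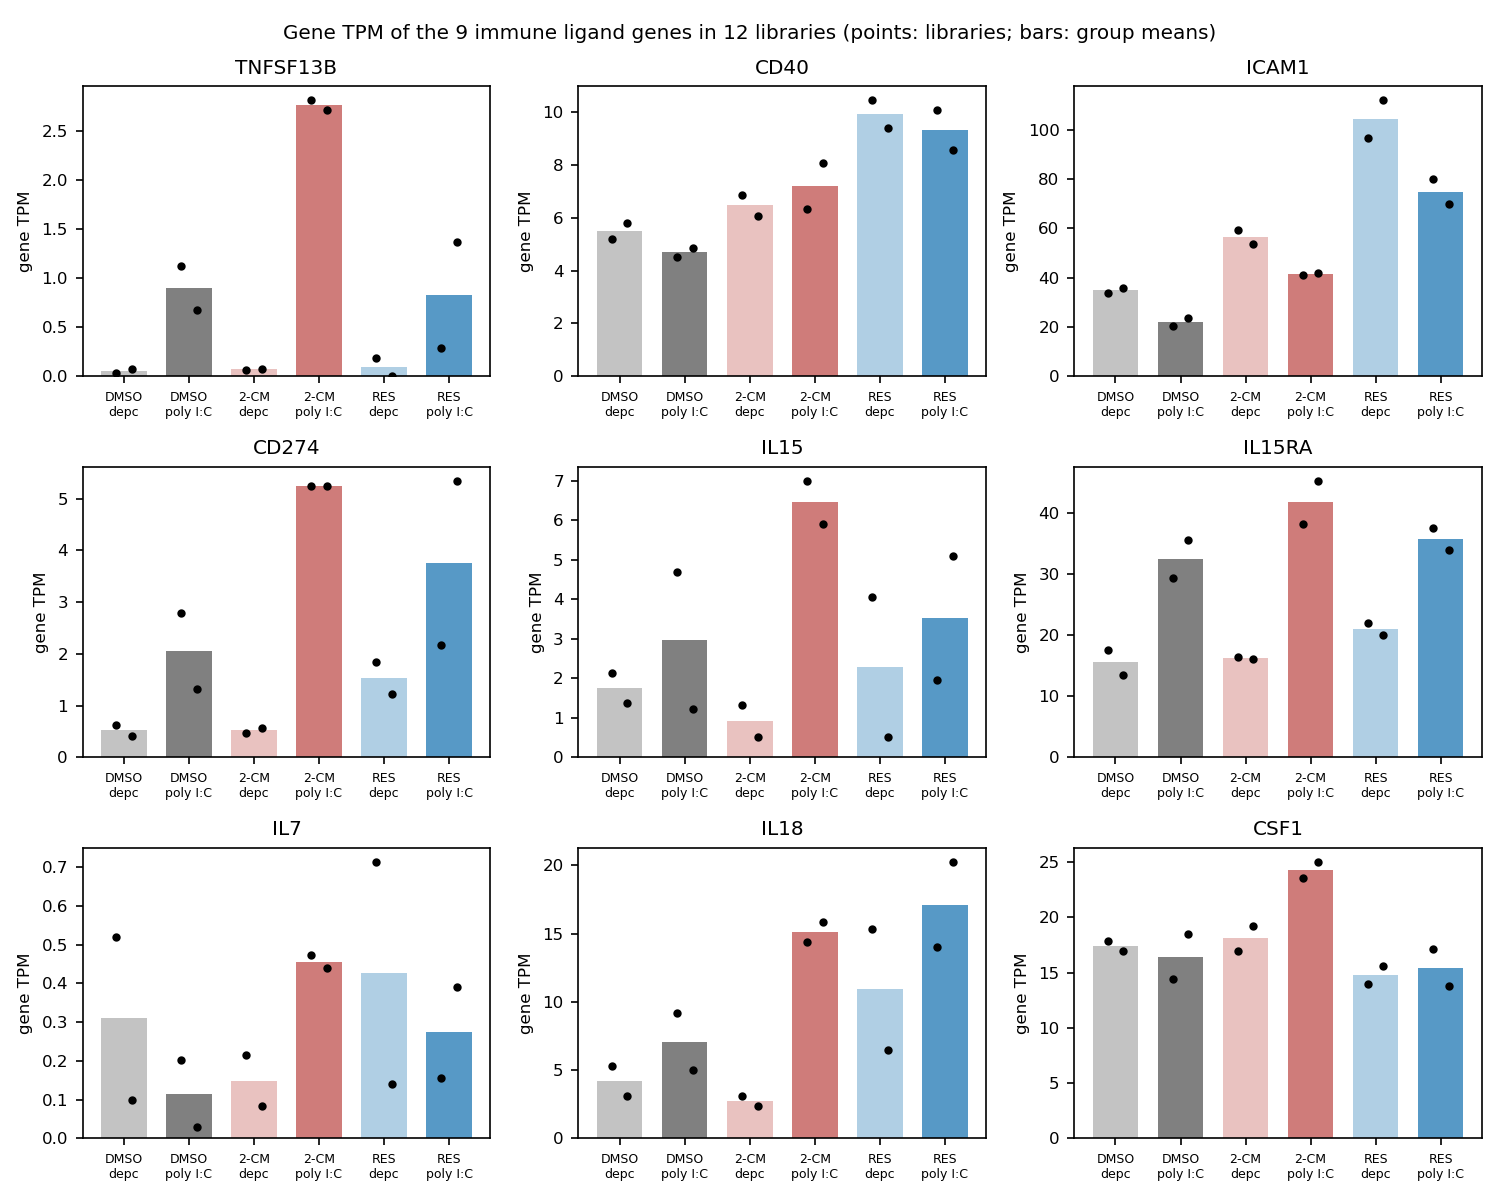
Gene TPM of the 9 genes on linear axes, with 1 panel per gene, bars for group means and points for the 2 libraries of each group. TNFSF13B, CD274 and IL15RA stand higher in the poly I:C groups of every compound, ICAM1 stands lower, and ICAM1 and CD40 are highest in the RES groups.

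Counted over the 8 tested members, poly I:C averaged over the compounds gave 4 called higher (TNFSF13B, CD274, IL15RA and IL18) and 1 called lower (ICAM1). The background share was 31.2% of all tested genes in either direction, 13.4% higher and 17.8% lower. The median log2 fold change was 1.01 over the members and 0.16 over all genes. Under DMSO 1 member was called (IL15RA, background 4.08%), and 4 had an unadjusted p under 0.05 where 19.7% of all genes did, with medians of 0.50 and -0.14. Under 2-CM 5 were called, all higher (TNFSF13B, CD274, IL15, IL15RA and IL18), where 49.3% of all genes were called and 37.5% called higher, with medians of 1.56 and 0.61. Under RES limma called 0 members (background 0.442%), 4 had an unadjusted p under 0.05 where 14% of all genes did, and the medians were 0.65 and -0.03.

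**Figure D2:**
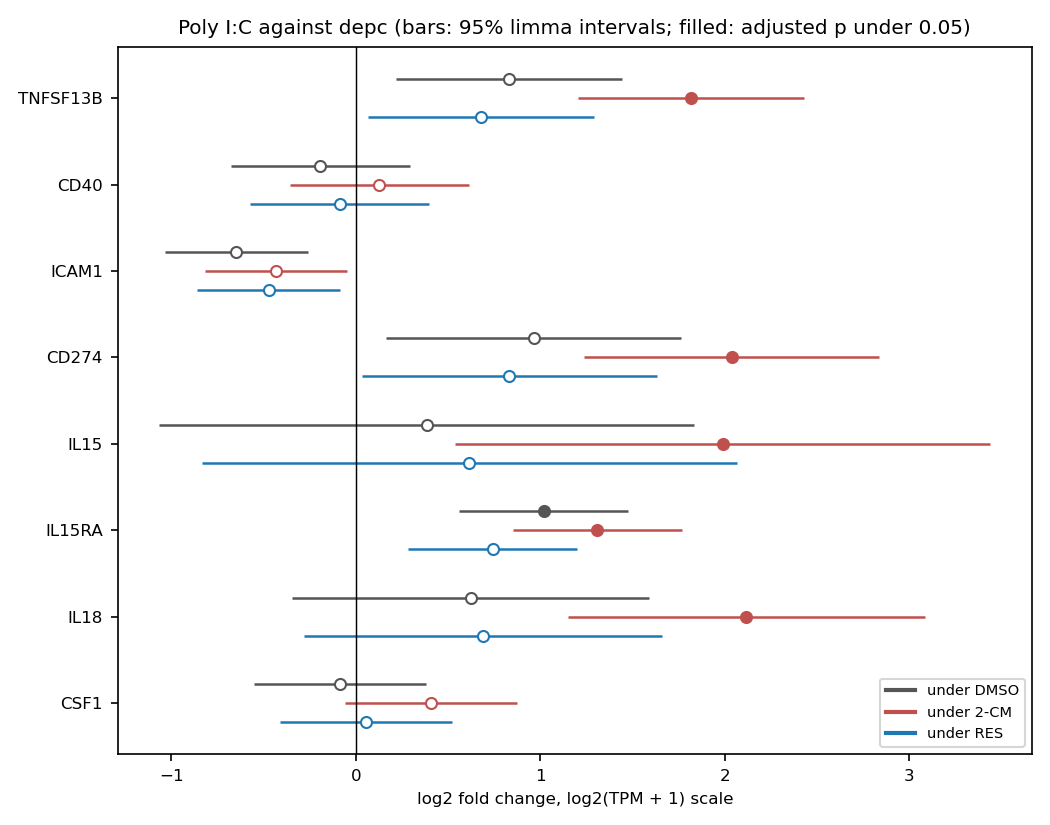
Poly I:C effect on 8 genes as log2 fold change on the log2(TPM + 1) scale, with 95% limma intervals, under DMSO, 2-CM and RES. Filled points passed an adjusted p of 0.05: IL15RA under DMSO, and TNFSF13B, CD274, IL15, IL15RA and IL18 under 2-CM.

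In these tests most calls rested on few libraries. The 5 calls under 2-CM were lost without any 1 of the 4 libraries compared, as were most over all genes, which fell from 8475 to between 37 and 46, while the effects held their size: without one of them TNFSF13B had 1.80 to 1.84 (adjusted p 0.0792 to 0.140), CD274 1.99 to 2.09 (0.0792 to 0.153), IL15RA 1.19 to 1.43 (0.0792 to 0.153), IL18 1.97 to 2.26 (0.0792 to 0.153) and IL15 1.67 to 2.31 (0.0799 to 0.173). The IL15RA call under DMSO was lost without each library of the DMSO and 2-CM groups, where its effect was 0.844 to 1.196. Such fits leave 1 library in a group, and calls over all genes under DMSO fell in them too. For the 5 members called on average, the averaged effects kept their direction without each of the 12 libraries. TNFSF13B had 0.96 to 1.26, CD274 1.11 to 1.44, IL15RA 0.96 to 1.08, IL18 0.95 to 1.33 and ICAM1 -0.55 to -0.48. Averaged calls over all genes moved both up and down in these fits.

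The poly I:C effects also moved with GC content and with scaling. Tested genes were split by GC into 10 classes of equal size, class 1 the lowest. TNFSF13B has transcripts of 37.3% GC and is in class 1, whose median effect under 2-CM was 1.99, and CD274 (41.2%), IL15 (40.0%) and IL18 (41.4%) are in class 2, with a median of 1.73. IL15RA, at 57.3% GC, is in class 8, with a median of -0.22. ICAM1, at 56.1% GC, is in class 8 too, whose median was -0.29 averaged, -0.32 under DMSO and -0.33 under RES. After a correction for the GC trend, the 2-CM effects of TNFSF13B, CD274 and IL15 were not called, while IL18, IL15RA (1.56, adjusted p 3.19e-04) and CSF1 (0.77, adjusted p 0.00222) were, at a background that went to 28.6%. Under RES the corrected calls were IL15RA (1.09, adjusted p 0.00436) and CSF1 (0.45, adjusted p 0.0420), with 3.89% of all genes called. The correction subtracts the trend of low-GC genes, also from a gene that is close to 0 with depc. Without it TNFSF13B had an effect of 1.82 under 2-CM, where the median of its class was 1.99. On the log2(TPM + 1) scale that effect comes out small for so low a gene. Its ratio of means under 2-CM was 39.7, and its effect reached 5.04 in the other settings. No class median was computed on those scales, so the 2 values do not rank TNFSF13B within its class. Whether the GC trend or a response to poly I:C underlies the TNFSF13B effect was not tested. Under DMSO, where classes 1 and 2 had medians of 0.01 and 0.03, the corrected effects were 0.81 for TNFSF13B (adjusted p 0.191), 0.92 for CD274 (adjusted p 0.0393), 0.57 for IL18 (adjusted p 0.0381) and 1.37 for IL15RA (adjusted p 5.10e-04), and 17.6% of all genes were called. Averaged over the compounds the corrected effects were 0.62 for CD274 (adjusted p 0.0118), 0.49 for IL18 (adjusted p 0.00382), -0.27 for ICAM1 (adjusted p 0.0107), 1.34 for IL15RA (adjusted p 7.92e-06) and 0.51 for CSF1 (adjusted p 2.67e-04), and 37% of all genes were called.

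**Figure D3:**
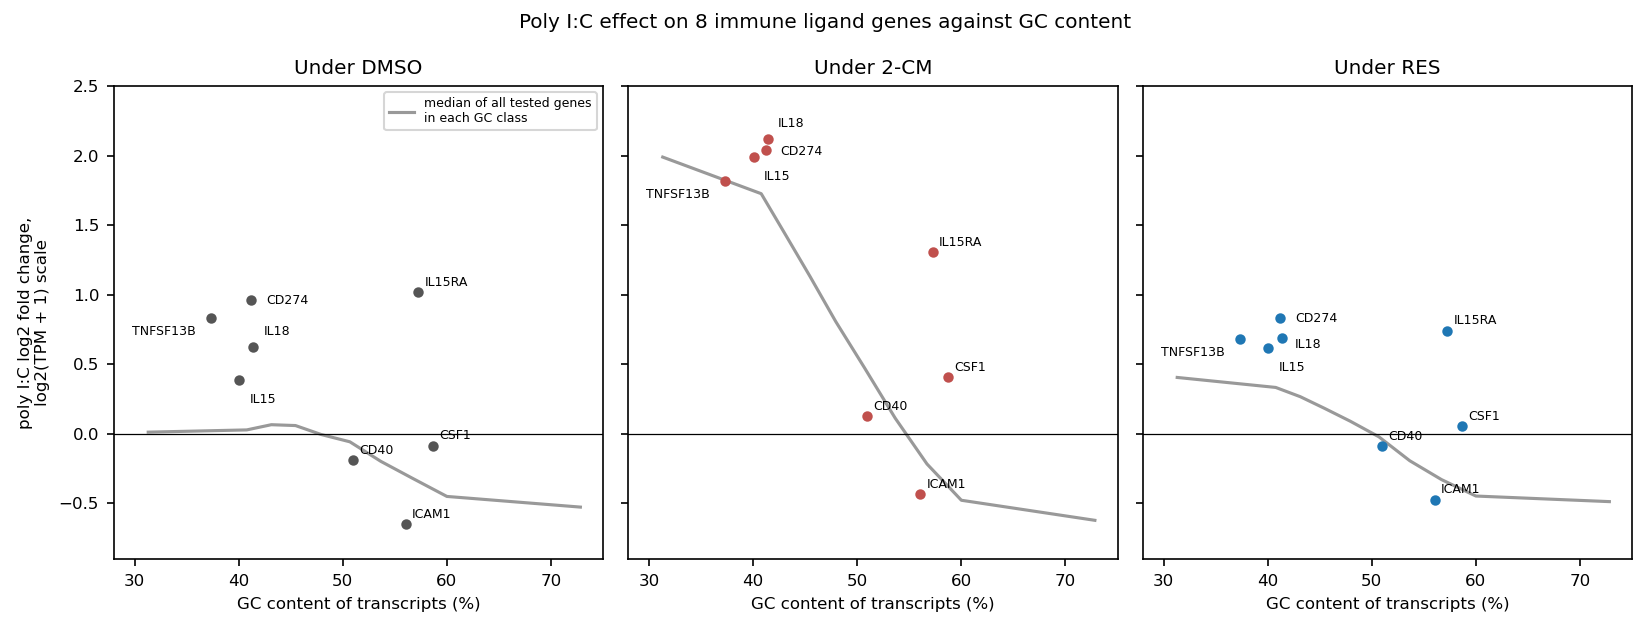
Poly I:C log2 fold change (log2(TPM + 1) scale) of 8 genes against the GC content of their transcripts in percent, under DMSO, 2-CM and RES. The grey line joins the medians of all tested genes in 10 GC classes, each drawn at the middle of its class. Under 2-CM the low-GC members lie near the line and IL15RA lies above it.

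Median-of-ratios scaling shifted the median effect of all genes under 2-CM from 0.61 to 0.02, and the calls there from 6440 higher and 2035 lower to 3425 and 4097. On that scale the 2-CM effects of TNFSF13B (1.41, adjusted p 0.0171), CD274 (1.48, adjusted p 0.0223), IL15 (1.39, adjusted p 0.0388) and IL18 (1.38, adjusted p 0.0246) were called, that of ICAM1 was called lower (-1.27, adjusted p 0.0267), and that of IL15RA was not. The split of calls also moved under DMSO, from 137 higher and 564 lower to 107 and 29, and under RES, from 34 and 42 to 39 and 2. In the authors' deposited table for 2-CM, TNFSF13B had a log2 fold change of 4.32 (adjusted p 2.86e-10), CD274 2.52 (3.16e-11), IL15 2.05 (4.15e-06), IL18 1.38 (5.89e-05), ICAM1 -1.28 (4.15e-14), CD40 -0.81 (0.0164) and IL15RA 0.43 (0.0725). CSF1 had -0.34 (0.132) there, opposite in direction to its GC-corrected effect under 2-CM. The authors' deposited table for DMSO held adjusted p-values under 0.05 for TNFSF13B, at 3.63 (0.0136), and CD274, at 1.93 (0.0383), and for IL15RA it gave 1.30 (0.0983). In the authors' deposited table for RES, TNFSF13B had 2.98 (0.999) and no member passed. The shares of genes with an adjusted p under 0.05 in the authors' deposited tables were 46.4% for 2-CM, 1.25% for DMSO and 0.363% for RES.

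Whether 2-CM or RES altered the response to poly I:C was tested as a difference of responses. For 2-CM against DMSO, limma called 0 of 8 members (background 0.0116%), and 2 of 8 had an unadjusted p under 0.05, a threshold passed by 29.7% of all genes. They were TNFSF13B, with a difference of 0.98 (95% interval 0.12 to 1.85, adjusted p 0.161), and IL18, with 1.49 (95% interval 0.12 to 2.86, adjusted p 0.162). The difference was above 0 for all 8 members, with a median of 0.74, and the median of all genes was 0.68. After the GC correction the differences of TNFSF13B, IL18 and CD274 (1.07 without it) were -0.95, -0.07 and -0.52. TNFSF13B had 0.47 (adjusted p 0.328) and IL18 0.58 (adjusted p 0.303) with median-of-ratios scaling. In that setting 0 members had an unadjusted p under 0.05, as did 3647 of all 17185 genes, down from 5097. No member passed that threshold when 1 of 6 libraries was left out: any from 2-CM, replicate 1 of DMSO depc, or replicate 2 of DMSO poly I:C. Fewer of all genes passed it in those fits too. Over the 12 fits with 1 library left out, the difference was 0.81 to 1.15 for TNFSF13B and 1.12 to 1.87 for IL18. For RES against DMSO limma called 0 members (background 0%) and none had an unadjusted p under 0.05 (1.7% of all genes). The differences under RES ran from -0.28 for IL15RA (95% interval -0.93 to 0.37) to 0.23 for IL15 (95% interval -1.82 to 2.28), so a difference within these intervals cannot be told from 0.

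RES was compared with DMSO at the same transfection, and ICAM1 was the member called. Its mean TPM in RES was 2.997 times that of DMSO with depc and 3.42 times with poly I:C, and the values above show no overlap between any of the 6 groups. The RES effect on ICAM1 was 1.55 with depc (SE 0.17, limma, adjusted p 0.0133) and 1.73 with poly I:C (SE 0.17, adjusted p 0.0243). It was the only 1 of 8 members called in either comparison, with a background of 1.03% with depc and 0.157% with poly I:C. After the GC correction it was 1.35 (adjusted p 3.56e-04) and 1.52 (adjusted p 4.85e-04). Under median-of-ratios scaling it was 1.35 (adjusted p 0.193) and 1.39 (adjusted p 0.242), and the calls of all genes with depc went from 144 higher and 33 lower to 6 and 7. The call with depc was lost without each DMSO depc, RES depc and 2-CM poly I:C library, at 1.45 to 1.66. The call with poly I:C was kept only without a RES depc library, the others giving 1.62 to 1.83. In the fits that lost these calls, calls over all genes fell too.

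CD40, like ICAM1 a known target gene of NF-kB, was higher in both RES libraries than in both DMSO libraries of each transfection, by a ratio of means of 1.81 with depc and 1.98 with poly I:C. The effects of 0.75 (SE 0.21, adjusted p 0.131) and 0.85 (SE 0.21, adjusted p 0.138) did not pass. IL18 had ratios of 2.602 and 2.41, also without overlap, and effects of 1.12 (SE 0.43, adjusted p 0.251) and 1.19 (SE 0.43, adjusted p 0.271). What share of all tested genes was without overlap in these comparisons was not counted. After the GC correction the IL18 effects were 1.02 (adjusted p 0.00448) and 0.84 (adjusted p 0.0154), and CSF1 was called lower in RES with depc, at -0.44 (adjusted p 0.0211). The correction also raised the share of all genes called, to 13.5% with depc and 8.46% with poly I:C. CD274 was 2.94 times as high in RES as in DMSO with depc, without overlap, and overlapped with poly I:C (ratio 1.83), with effects of 0.73 (95% interval -0.07 to 1.53, adjusted p 0.397) and 0.60 (95% interval -0.20 to 1.40, adjusted p 0.518). TNFSF13B had 0.04 with depc (95% interval -0.57 to 0.66) and -0.11 with poly I:C (95% interval -0.72 to 0.50).

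For 2-CM against DMSO, limma called 0 members with depc (background 0.0349%) and 0 with poly I:C (background 0.105%). At an unadjusted p under 0.05 there was 1 member with depc, where 4.84% of all genes passed, and 6 with poly I:C, where 34.2% did. ICAM1 was higher in both 2-CM libraries of each transfection, by a ratio of means of 1.62 with depc and 1.89 with poly I:C, and its effects were 0.68 (SE 0.17, adjusted p 0.721) and 0.89 (SE 0.17, adjusted p 0.0905). With poly I:C the others were TNFSF13B at 1.00 (SE 0.27, adjusted p 0.0992), CD274 at 1.07 (adjusted p 0.114), IL18 at 1.04 (adjusted p 0.135), CSF1 at 0.54 (adjusted p 0.125) and CD40 at 0.52 (adjusted p 0.136). All 8 members were above 0 with a median of 0.95, and the median of all genes was 0.59. Under median-of-ratios scaling, which brought that of all genes to -0.02, ICAM1 had 0.10, TNFSF13B 0.50, CD274 0.47, IL18 0.30, CD40 -0.18 and CSF1 -0.23. After the GC correction ICAM1 was called, at 0.62 (adjusted p 0.0213), where 6.83% of all genes were, and TNFSF13B had -0.28. IL15 was lower under 2-CM than under DMSO with depc (ratio of means 0.523) and higher with poly I:C (2.18), without overlap, and its difference of responses, 1.61 (95% interval -0.45 to 3.66, adjusted p 0.231), did not pass. With the GC correction these IL15 directions turned: the difference of responses was -0.11, and 2-CM against DMSO was 0.03 with depc and -0.08 after poly I:C.

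**Figure D4:**
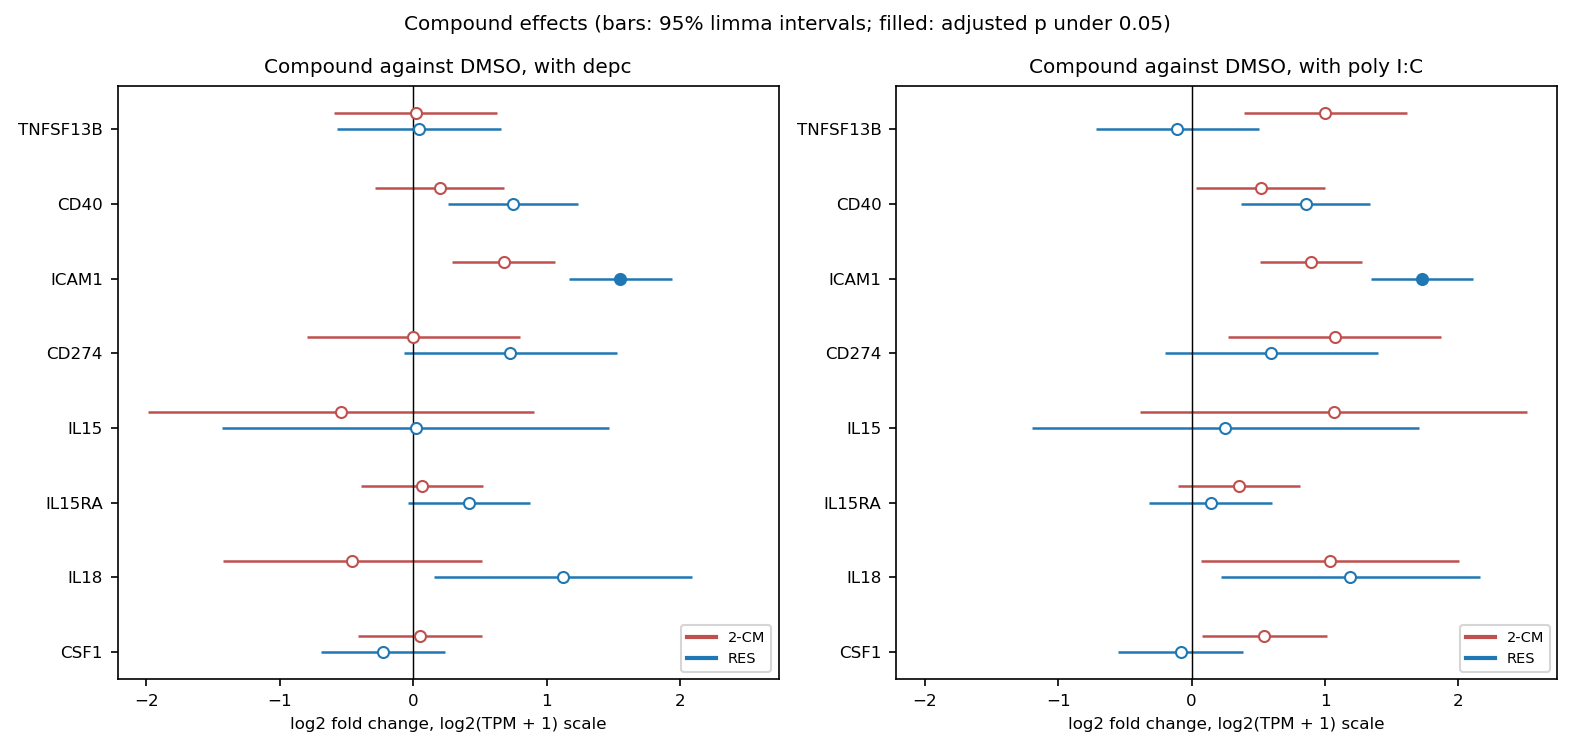
Effects of 2-CM and RES against DMSO on 8 genes, with depc on the left and with poly I:C on the right, as log2 fold change on the log2(TPM + 1) scale with 95% limma intervals. ICAM1 under RES is filled in both panels, meaning an adjusted p under 0.05.

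The transcripts of IL18 differed between groups beyond what the gene sum shows. Protein-coding transcripts of IL18 were at 0.111 TPM and listed at 0 in DMSO depc, and listed at 0 in both 2-CM depc libraries, where retained-intron transcripts held 2.35 to 5.19 TPM. With poly I:C the coding transcripts were at 7.51 and 4.40 TPM for DMSO and at 4.89 and 12.2 TPM for 2-CM. RES differed already with depc, at 11.8 and 4.30 TPM of coding transcripts, and held 12.7 and 18.8 TPM with poly I:C. The coding share of IL18 was 0% to 2.09% in the 4 DMSO and 2-CM depc libraries and 34.0% to 92.6% in the other 8. These are StringTie estimates that divide reads among overlapping transcripts, the types are those of GENCODE 44, and no test was made of them. Coding transcripts made up 99.5% or more of ICAM1 in every library.

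**Figure D5:**
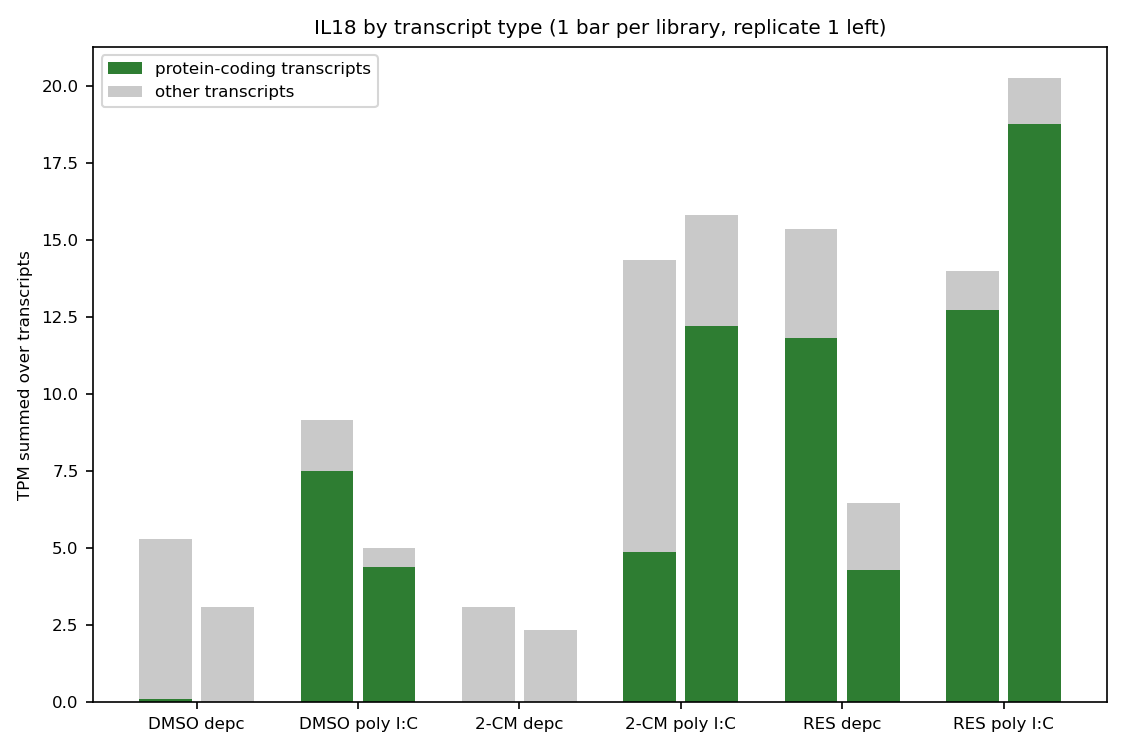
TPM of IL18 split into protein-coding transcripts (green) and other transcripts (grey), with 1 bar per library and replicate 1 on the left of each pair. The 4 depc bars of DMSO and 2-CM are almost wholly grey, and those of RES depc and of all poly I:C groups hold 4.30 to 18.8 TPM of coding transcripts.

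Partner genes came from 5 lists, read here for poly I:C averaged over the compounds, where 13.4% of all tested genes were called higher and 17.8% lower. Among transcription factors that act on these genes 7 of 11 tested were called higher and 2 lower, with a median of 0.61. IRF9, the DNA-binding part of the interferon-stimulated factor ISGF3, rose by 3.92 (SE 0.15, adjusted p 2.64e-06), from group means of 1.44 to 3.42 TPM with depc to 37.8 to 62.9 TPM with poly I:C. The signalling proteins behind CD40 and the BAFF receptors gave 1 called higher and 5 lower of 10, with a median of -0.13: MAP3K14, the kinase NIK that starts the non-canonical NF-kB pathway, fell by 0.64 on the log2 scale (adjusted p 0.00608), and BIRC2, a ubiquitin ligase that restrains NIK, rose by 1.26 (adjusted p 0.0486).

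The processing and binding partners gave 2 called higher and 1 lower of 7 tested. FURIN, the protease type that releases BAFF, fell by 0.96 on the log2 scale (SE 0.12, adjusted p 0.00154), with group means of 46.8 to 53.7 TPM with depc and 22.2 to 27.4 TPM with poly I:C. CASP1, which matures IL-18, rose by 1.11 (SE 0.25, adjusted p 0.0130), from 1.24 to 2.099 TPM to 2.80 to 8.43 TPM. Other epithelial ligands gave 5 called higher and 6 lower of 20 tested among 31, with a median of -0.04. IL34, among the 6 lower at -0.49, reached 1 TPM in 5 depc libraries and 0 poly I:C libraries. With no filter its adjusted p was 0.0203. TNFSF10 (TRAIL, a death ligand) rose by 3.03 (SE 0.34, adjusted p 0.00111), and LGALS9 (galectin-9) rose by 1.99 (SE 0.15, adjusted p 1.40e-04). LGALS9 entered the test only through its 6 poly I:C libraries, since 0 depc libraries reached 1 TPM, and with no filter its adjusted p was 6.77e-04. Its effect was 3.11 with a pseudocount of 0.1.

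Of 13 receptors and partners of these ligands on immune cells, 7 did not pass the filter, and of the 6 tested 0 were called higher and 1 lower. IL2RG, a receptor chain shared by IL-15 and IL-7, had the highest levels, from 1.43 to 6.10 TPM, and was not called (-0.16, adjusted p 0.341). CSF1R, the CSF1 receptor, ranged from 0.2996 to 2.68 TPM and fell by 0.63 on the log2 scale (adjusted p 0.0070). It reached 1 TPM in 5 depc libraries and 1 poly I:C library, and with no filter its adjusted p was 0.0211. TNFRSF13C, the BAFF receptor, ranged from 0.376 to 1.67 TPM and had -0.31 (adjusted p 0.0505), and was called under median-of-ratios scaling (-0.40, adjusted p 0.0301). Fold changes of such low genes come out small on the log2(TPM + 1) scale: with a pseudocount of 0.1, CSF1R had -1.15 and TNFRSF13C -0.61.

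Counts over these lists moved with the processing. With no filter on low genes, 6 calls were lost, those of BIRC2, CASP4, CD58 and ULBP2, which had been higher, and of RELA and RELB, which had been lower (adjusted p 0.0528 to 0.122). That left 7 higher and 1 lower for the transcription factors, 0 and 4 for the signalling proteins, 1 and 1 for the processing partners and 3 and 6 for the other ligands. Over all 40364 genes of that setting 986 were called higher and 2703 lower. With the GC correction the counts were 8 higher and 1 lower for the transcription factors, 2 and 1 for the signalling proteins, 3 and 1 for the processing partners, 6 and 4 for the other ligands, and 0 and 1 for the receptors. Under median-of-ratios scaling they were 5 and 1, 2 and 4, 3 and 1, 5 and 6, and 0 and 2 in the same order. Over all 17185 genes, 3087 were called higher and 3273 lower with the GC correction. The scaling gave 3055 higher and 3200 lower. The corrected effects of FURIN (-0.46), CASP1 (0.47), MAP3K14 (-0.22), BIRC2 (0.47) and CSF1R (-0.31) were smaller and still called, and those of IRF9 (4.08), TNFSF10 (2.35) and LGALS9 (2.28) were called too. With the replicate block added to the GC correction the receptors had 1 called higher and 0 lower, so the CSF1R call was lost.

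The genes whose levels followed each member most closely were found by Pearson r of log2(TPM + 1) over the 12 libraries, among 11909 genes with a mean of 5 TPM or more in a group. These libraries share treatment and GC differences, so r is given as a description. Closest to TNFSF13B were IL6 (r 0.975, 0.288 to 18.3 TPM), SAMD9 (r 0.973) and GBP1 (r 0.970). The closest gene to CD274 was GBP3 (r 0.983), to IL15RA ZNFX1 (r 0.975), to IL15 SLC25A12 (r 0.998), to IL18 MTHFS (r 0.984), to CD40 ELMOD3 (r 0.981), to ICAM1 NDRG4 (r 0.974) and to CSF1 E2F4 (r 0.932). GBP1 and GBP3 encode interferon-induced guanylate-binding proteins and SAMD9 an interferon-induced antiviral factor.

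In order of level, the 2-CM poly I:C group was highest for TNFSF13B, CD274, IL15, IL15RA, IL7 and CSF1. RES poly I:C was highest for IL18, and RES depc for CD40 and ICAM1. Tested genes in general also stood higher in 2-CM poly I:C than in DMSO poly I:C, with a median effect of 0.59. By GC class that median ran from 1.28 in class 1 to 0.21 in class 10. How many of the tested genes were highest in 2-CM poly I:C was not counted, so this rank alone does not set the members apart. The highest group was apart from the next for TNFSF13B, IL15, IL15RA, CSF1 and ICAM1. For CD274, IL7, IL18 and CD40 its 2 libraries overlapped those of the next. Such separation was not counted over all tested genes, here or where groups above had no overlap, so it does not set the members apart. The lowest group was DMSO poly I:C for ICAM1, CD40 and IL7, a depc group for the other 6.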

How the data were processed

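The members and gene lists were chosen with earlier results of these data known. Reads were aligned with HISAT2 2.1.0 to hg38, per the submitters' processing notes. The authors quantified GENCODE 32 transcripts with StringTie 2.0.4 and no strand option, per the file headers, which wrote coverage (a signal), FPKM and TPM for each transcript. The authors' 3 deposited tables give, per the file headers, a mean normalised signal, a log2 fold change with its SE, a test score and p-values, and the submitters' processing notes list DESeq2.

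Transcript TPM was summed to genes (Python 3.11.15), and coverage times length over the read length of 101 gave estimated reads. Genes that reached 1 TPM in 2 or more libraries were kept. In R 4.3.3, limma 3.58.1 with a variance trend fitted 6 group means to log2(TPM + 1) in all 12 libraries (6 residual degrees of freedom), with 10 contrasts and Benjamini-Hochberg adjustment over 17185 genes in each. Calls are at an adjusted p under 0.05, all from limma. The GC correction removed a lowess trend (span 0.3) of each library's values on GC content. The fit was tested on simulated data with changes for poly I:C under DMSO and no GC or replicate trend. The simulation changed 50 genes at each log2 change of 1, 2, 3 and 4 among 17185. The fit called 8% of genes with a log2 change of 1, 70% at 2 and 0.0471% of unchanged genes, so changes near 1 were mostly missed there. In the data more genes were called for poly I:C under 2-CM (8475) and averaged (5361), and averaged effects have a smaller SE. These shares therefore do not carry over to those contrasts. Every member was named. Partners were the 2 called genes per list with the largest averaged effect that reached a mean of 1 TPM in a group, and TNFRSF13C, IL2RG, IL34, CASP4, CD58, ULBP2, RELA and RELB were named after their values were seen. 1 gene of the lists is not reported here. Alternatives were median-of-ratios scaling, no filter, a pseudocount of 0.1, estimated reads as log2 CPM, the replicate number as a block, the GC correction, both together, and each library left out.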

Additional observations from a re-analysis of the deposited data

How the results depend on the processing

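Counts of called members that moved by over 1.5 times were as follows. Under median-of-ratios scaling 0 were called for poly I:C under DMSO, 0 for RES against DMSO with poly I:C or depc, each 1 otherwise. Calls over all genes went from 701 to 136, 27 to 23 and 177 to 13 in that order. With no filter 3 in place of 5 were called for poly I:C under 2-CM, while calls over all genes went from 8475 of 17185 to 649 of 40364. With the GC correction, 3 were called for poly I:C under DMSO, 3 under 2-CM and 2 under RES, 1 for 2-CM against DMSO (poly I:C), and for RES against DMSO 2 (poly I:C) and 3 (depc), while calls over all 17185 genes also went up, except under 2-CM: from 701 to 3031, 8475 to 4922, 76 to 668, 18 to 1173, 27 to 1454 and 177 to 2312 in that order. With the replicate block, 0 were called for poly I:C under DMSO, and 346 of all genes. With the replicate block and the GC correction together the counts were 2, 2 and 1 for poly I:C under DMSO, 2-CM and RES, 1 for 2-CM against DMSO (poly I:C), and for RES against DMSO 2 (poly I:C) and 3 (depc). Over all genes they were 2827, 4794, 554, 942, 1304 and 2134. Leaving out single libraries gave 0 to 1 members for poly I:C under DMSO, 0 to 6 under 2-CM, 5 to 6 averaged, and 0 to 1 for RES against DMSO with poly I:C or depc. Calls over all genes also moved widely when single libraries were left out. The cause of these moves was not tested. Smaller moves, from 5 to 6, were those of averaged poly I:C under median-of-ratios scaling and of poly I:C under 2-CM with estimated reads as log2 CPM.

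Among the effects with an unadjusted p under 0.05 and the averaged poly I:C effects, these changed sign. Over all 80 effects of the members, the GC correction turned 22. With the GC correction, with or without the replicate block, TNFSF13B had -0.14 for poly I:C under 2-CM, -0.95 for the difference of responses under 2-CM and -0.28 for 2-CM against DMSO with poly I:C, CD274 had -0.0012 in the last comparison, and IL18 had -0.071 for the difference of responses and -0.023 in the last comparison. With median-of-ratios scaling, 2-CM against DMSO with poly I:C gave -0.18 for CD40 and -0.23 for CSF1, and averaged poly I:C gave -0.069 for CSF1. With single libraries left out, the averaged CD40 effect ran from -0.101 to 0.0017, the highest without 2-CM poly I:C replicate 1. Of 13 called effects, 75 of 91 values under other settings kept direction and call, 14 lost the call and 2 changed sign.

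The labels do not say that a replicate number marks a shared culture or day. Over 15 pairs of groups the correlation of replicate differences ran from -0.80 to 0.76, and 10 were above 0.1, so same-numbered libraries deviated together in most pairs but not in all, and they were not treated as paired. With the block alone, IL15RA under DMSO kept 1.02 with an adjusted p of 0.0534. Levels under 1 TPM rest on few reads.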
